A study of Bos taurus with 170 samples.

Results

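MYC (RefSeq gene ID 511077, protein coding) was followed in single blastomeres of in vitro produced bovine embryos. It was 1 of 10772 genes in the table of unique molecular identifiers (UMI), and 55 of the 161 cells kept for the analysis held at least 1 MYC UMI. The gene was put forward with its rise on Day 3 and the share of MYC-positive cells in each embryo known. Levels and shares of MYC by day and by embryo are therefore given as a description, without a test. Tests were run on the relation of the MYC levels to embryo timing and on other genes between the days. The timing tests use the same MYC levels, and the gene lists were chosen with earlier results of these data known.

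MYC encodes a basic helix-loop-helix leucine zipper transcription factor that binds DNA as a dimer with MAX. The MXD proteins, MNT and MGA also pair with MAX and can occupy the same sites, so that the balance of these partners sets the outcome at a target. MYC is known for driving genes of ribosome assembly, nucleotide synthesis, translation and cell cycle entry, and both its mRNA and its protein are short-lived. In the early embryo, embryonic genome activation replaces the maternal transcripts by transcripts made by the embryo itself.

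Transcriptomes were obtained by SCRB-Seq, a plate-based method that tags each captured mRNA molecule at its 3′ end with a UMI, so that PCR copies are counted as 1 molecule. The oocytes came from slaughterhouse ovaries, were matured and fertilized in vitro, and none of the embryos received a treatment. The Day 2 group consisted of 6 embryos labelled as 8-cell stage and the Day 3 group of 8 embryos labelled as 16-cell stage, all of which had been picked by time-lapse microscopy for their cleavage timing. Each embryo was taken as 1 replicate, because sibling cells share an embryo and a plate.

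A cell was kept when it held 2000 or more UMI, which left 43 Day 2 and 118 Day 3 cells. The median cell held 75114 UMI on genes on Day 2 and 24016.5 on Day 3, and the sum over an embryo lay between 294912 and 920192. Levels are given as CPM, the MYC UMI of an embryo per 1000000 of its gene UMI. Intervals around levels are exact 95% Poisson intervals and cover counting error only. The plate of a cell was read from the ending of its sample title. Plate 1 held Day3-E1 to Day3-E4, and plate 2 held Day2-E5, Day2-E6, Day3-E7 and Day3-E8. Plate 3 held Day2-E1 to Day2-E4, Day3-E5 and Day3-E6. The 170 deposited cells carried 93 distinct cell barcodes, of which 77 were used for 2 cells.

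MYC transcripts were almost absent on Day 2. In all, 1 MYC UMI was found among 4023294 gene UMI of Day 2 cells and 116 among 3150380 gene UMI of Day 3 cells. The only Day 2 molecule was in Day2-E2, at a level of 1.09 CPM. The other 5 Day 2 embryos held 0 MYC UMI, for which the upper end of the exact interval was 4.72 to 8.40 CPM, depending on depth. If the Day 2 cells had carried MYC at the level of Day3-E1, the lowest Day 3 embryo, 26.8 UMI would have been counted in them.

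Each of the 8 Day 3 embryos contained MYC transcripts, with a mean level of 36.8 ± 29.7 CPM (SD, n = 8 embryos) and a median of 27.6 CPM. The lowest level was 6.66 CPM in Day3-E1 (4 UMI, interval 1.82 to 17.1), and the highest was 103.0 CPM in Day3-E6 (47 UMI, interval 75.7 to 137). Between these extremes the embryos formed a gradual series. Day3-E5 had 18.2 CPM, Day3-E7 22.6 CPM, Day3-E2 23.7 CPM, Day3-E3 31.4 CPM, Day3-E8 41.2 CPM and Day3-E4 47.8 CPM. The measured levels of the 2 days did not overlap. The upper ends of the intervals of Day2-E1 (7.88 CPM) and Day2-E6 (8.40 CPM), however, are above the 6.66 CPM of Day3-E1. The interval of Day3-E1 itself began at 1.82 CPM, below the upper end of the interval of every Day 2 embryo (4.72 CPM or more).

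Neighbours in this order could not be told apart by counting alone, other than at the top. The ratio of Day3-E6 to Day3-E4, the next in the order, was 2.154 (exact 95% interval 1.1995 to 4.07). Every further pair of neighbours had an interval that included 1, with ratios between 1.05 for Day3-E2 over Day3-E7 and 2.73 for Day3-E5 over Day3-E1 (0.694 to 12.7). More distant embryos differed beyond counting error, since Day3-E4 exceeded Day3-E1 by a factor of 7.18 (2.31 to 29.5). Day3-E6 alone supplied 40.5% of the Day 3 MYC UMI but 14.48% of the Day 3 gene UMI.

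**Figure D1:**
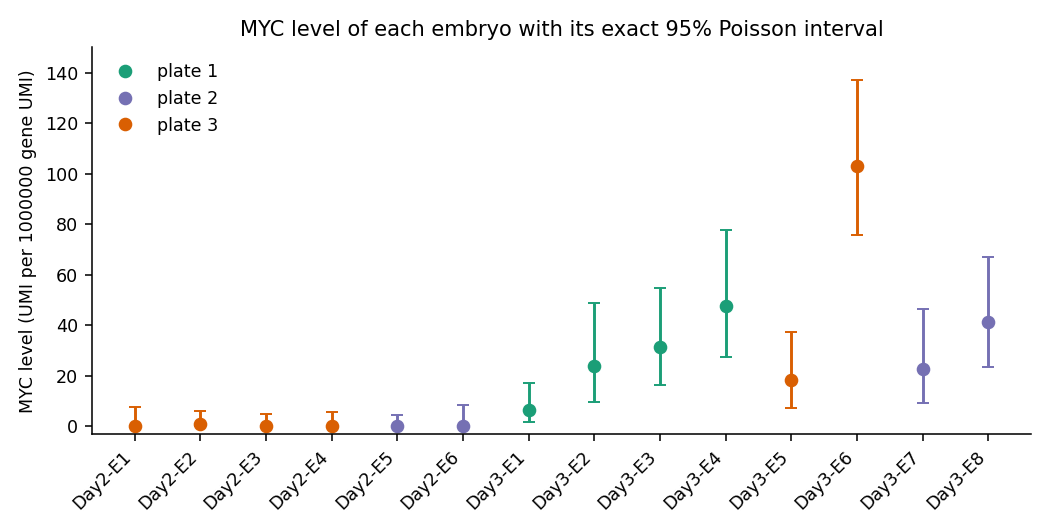
MYC level of the 14 embryos in UMI per 1000000 gene UMI (y axis), 1 point per embryo, coloured by plate, with exact 95% Poisson intervals as bars. The 6 Day 2 embryos lie at or near 0, and Day3-E6, at 103.0 CPM, stands above the other Day 3 embryos, which lie between 6.66 and 47.8 CPM.

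The Day 3 embryos lay above the Day 2 embryos within both plates that held the 2 days. On plate 3, 54 MYC UMI were counted in Day 3 cells, 47 of them in Day3-E6 and 7 in Day3-E5, and 1 in Day 2 cells. The ratio per gene UMI was 180 (exact interval 30.96 to 7239). Its interval covers counting error of the summed UMI only and not the spread between embryos. On plate 2, 23 MYC UMI were counted in Day 3 cells and 0 in Day 2 cells, which is at least 13.41-fold higher when 3 UMI are taken as the limit for the Day 2 cells of that plate. Plate 1 held Day 3 embryos only, with 39 MYC UMI and a pooled level of 24.2 CPM.

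Day and cell barcode set were partly confounded. A first set of barcodes served every Day 2 embryo and also Day3-E1 and Day3-E2. A second set served the embryos from Day3-E4 to Day3-E8, while the labels did not settle the set of Day3-E3. The first-set Day 3 embryos, at 6.66 and 23.7 CPM, overlapped the second-set embryos, which ranged from 18.2 to 103.0 CPM. Each of the 43 Day 2 cells shared its barcode with a Day 3 cell, and 27 of these Day 3 partners held 69 MYC UMI in total. The partner of the single MYC-positive Day 2 cell held 0. That Day 2 cell was the deepest of its day, with 357287 UMI on genes.

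Scaling to the ERCC spike-in, an equal amount of which was added to each well, was chosen after seeing the data and left both ends of the order in place. Per 1000 ERCC UMI, Day3-E6 was highest with 3.36 MYC UMI and Day3-E1 lowest with 0.470. Day3-E3 moved to the second place with 2.134, followed by Day3-E8 with 1.61, Day3-E2 with 1.598 and Day3-E4 with 1.57, values that are hardly distinguishable. Day3-E7 and Day3-E5 had 0.766 and 0.731.

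At the level of cells, MYC was detected in 1 of 43 Day 2 cells (2.33%) and in 54 of 118 Day 3 cells (45.8%). The share of positive cells was lowest in Day3-E1, with 2 of 14 cells (14.29%, exact binomial interval 1.78% to 42.8%). It reached 14 of 14 cells in Day3-E6 (100%, 76.8% to 100%) and 10 of 13 cells in Day3-E4 (76.9%, 46.2% to 94.96%). The other 5 embryos had 23.5% to 60% of their cells positive.

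Depth entered these shares. In Day3-E4 the 10 positive cells had a median of 24767 gene UMI and the 3 negative cells a median of 3323. In Day3-E8, in contrast, the 6 negative cells were the deeper ones, with a median of 29673 against 24033. After each cell had been thinned to 10000 UMI, which left 103 Day 3 cells, the expected share of positive cells ranged from 4.74% in Day3-E1 to 69.6% in Day3-E6. Day3-E4 followed with 43.5%, Day3-E8 with 35.8% and Day3-E7 with 23.1%.

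Summed over the Day 3 embryos, the numbers of cells with 0, 1, 2 or more MYC UMI were close to those that counting alone gives. These coarse classes do not measure how far single cells lay from their expected counts, which is given further below. At the level of their own embryo and at their own depth, 60.3 of the 118 Day 3 cells were expected to hold 0 MYC UMI, and 64 did. For 1 UMI the expected number was 31.3 cells and 26 were observed. For 2 UMI 13.605 were expected and 14 observed, and for 3 or more 12.8 were expected and 14 observed. With a single level for all Day 3 embryos, in comparison, 50.7 cells would have been expected at 0 and 36.95 at 1 UMI.

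By embryo, the positive cells also came close to their expected numbers. In Day3-E1 3.41 positive cells were expected and 2 found, in Day3-E2 5.33 and 4, and in Day3-E3 7.91 and 6. In Day3-E5 5.39 were expected and 4 found, in Day3-E7 5.37 and 5, and in Day3-E8 9.43 and 9. Day3-E4 and Day3-E6 had more positive cells than expected, with 10 against 8.12 and 14 against 12.7. The number of positive cells was thus below its expectation in 6 of the 8 embryos, by less than 2 cells in each.

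The spread was summarised as the Pearson chi-square of the MYC UMI of siblings per degree of freedom, which averages 1 when siblings share 1 level per UMI. Over the 8 Day 3 embryos it was 1.53, with a counting SD of 0.173 around 1. The MYC UMI of siblings thus spread more than counting alone gives. The index was highest in Day3-E5 (2.67, counting SD 0.512) and Day3-E3 (2.29, 0.415). It was lowest in Day3-E4 (0.312, 0.501), whose 10 positive cells included 7 with exactly 1 UMI. In the remaining 5 embryos it lay between 1.106 and 1.496.

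In Day3-E5, cell 4 held 3 MYC UMI in 24546 gene UMI, where 0.447 were expected, and cell 7 held 2 in 8277. Cell 14 of Day3-E3 held 5 MYC UMI in 23399 gene UMI, where 0.735 were expected. Cell 8 of Day3-E6 held 8 in 23768, where 2.45 were expected, and at 337 CPM it had the highest level of MYC among all cells. Cell 13 of the same embryo also held 8, but in 108376 gene UMI, where 11.16 were expected.

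**Figure D2:**
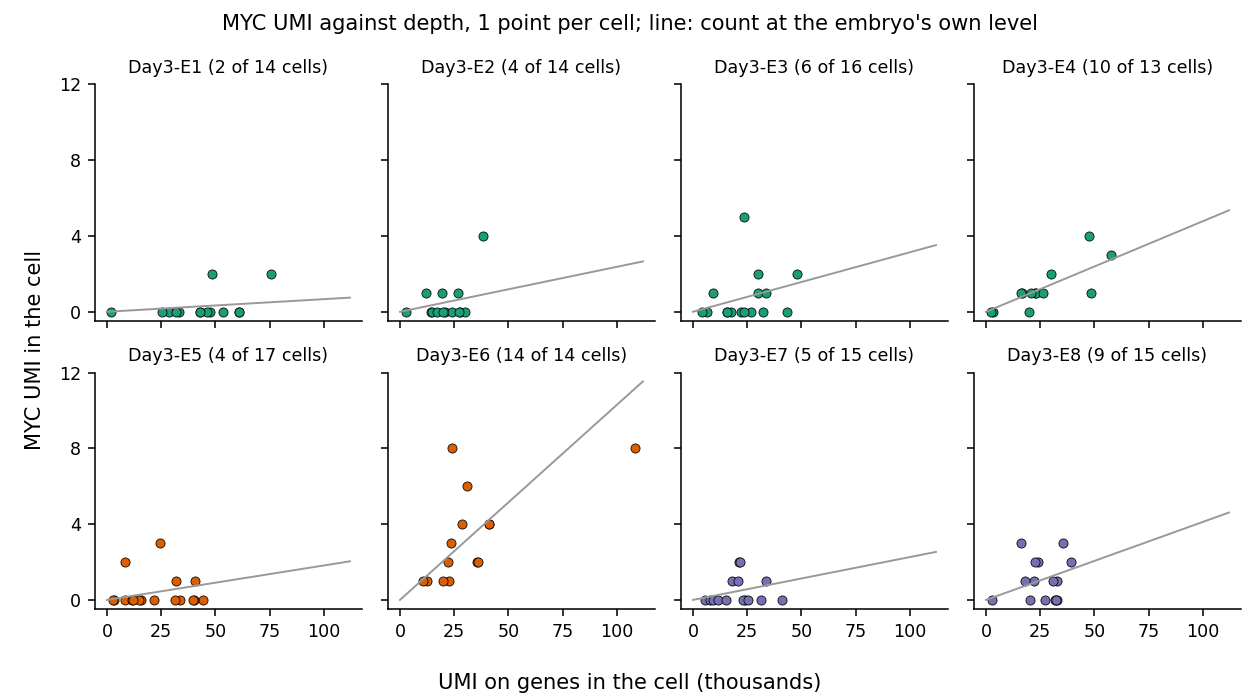
MYC UMI (y axis) against UMI on genes (x axis, in units of 1000) for each cell of the 8 Day 3 embryos, coloured by plate. The line gives the count at the embryo's own level, and the points of Day3-E6 rise to 8 UMI while 12 of the 14 cells of Day3-E1 lie at 0.

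For comparison, the same index was computed for the 2575 genes whose Day 3 sum lay between 58 and 232 UMI. Their median index between siblings was 1.31 (quartiles 1.15 and 1.52), and 75.7% of them were below MYC. MYC was therefore at the upper quartile of genes of like abundance in its spread within embryos. Between embryos its index was 11.06 (counting SD 0.533), against a median of 3.75 and quartiles of 2.28 and 6.27. Of the genes of like abundance, 92.0% were below it. MYC was chosen with its share of positive cells in each embryo known, so this rank follows in part from the choice. Without Day3-E6 the index between embryos was 3.34. MYC was detected in 45.8% of Day 3 cells, while the median gene of like abundance was detected in 49.2%.

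The times of the first, the second and the third cleavage and of collection, as published by the study for each embryo, allowed the MYC level to be set against developmental timing on Day 3. No relation with any of the 5 times passed the test across the 8 embryos. Pearson's r with the MYC level was 0.133 for the first cleavage (exact permutation p = 0.824), -0.061 for the second (exact p = 0.906) and -0.108 for the third (exact p = 0.829). It was 0.166 for the interval from the third cleavage to collection (exact p = 0.634) and 0.151 for collection (exact p = 0.781). Spearman's rho was -0.357, -0.467, -0.595, 0.429 and 0.077 for these times in the same order, with exact p from 0.132 to 0.867. All tests were two-sided, and adjusted over the 10 relations each p was 0.906.

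These values turned on Day3-E6. Ordered by the third cleavage, the MYC levels were 41.2, 47.8, 23.7, 31.4, 22.6, 103.0, 18.2 and 6.66 CPM, from the earliest embryo to the latest. Apart from Day3-E6, which was the sixth, the embryos that cleaved early had more MYC than those that cleaved late. Without Day3-E6, r was -0.782 for the first cleavage, -0.892 for the second and -0.856 for the third. By the exact permutation test adjusted over the 5 times, p was 0.0675, 0.0377 and 0.0382 (n = 7 embryos). Day3-E6 is the embryo with the highest MYC level, so leaving it out selects on the outcome.

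Within plate 1, whose 4 embryos were collected at the same time, r was -0.785, -0.854 and -0.804 for the cleavages. None of these passed the exact permutation test (n = 4 embryos, two-sided p = 0.208, 0.167 and 0.208, adjusted p = 0.208 for each). With so few embryos only the most extreme order could pass, so the test cannot decide whether a relation exists on plate 1. Without the pair of embryos farthest from the median time, r was -0.817 for the first cleavage, 0.358 for the second, 0.012 for the third, -0.253 for the interval to collection and 0.497 for collection. For the first cleavage this pair was Day3-E5 and Day3-E6, so the value again leaves out the embryo with most MYC. No relation can be stated that holds with and without single embryos. On Day 3, collection time and plate coincided and cannot be told apart.

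Day3-E5 and Day3-E6 were matched in most respects. They shared the plate, the barcode set and the collection time, and they were next to each other in the order of the third cleavage. Their MYC levels were 18.2 and 103.0 CPM, a ratio of 5.66 (exact interval 2.54 to 14.85). On plate 2, Day3-E8 and Day3-E7 also shared the barcode set and the collection time, but they were not matched in cleavage timing. In the same order of cleavage Day3-E8 had rank 1 and Day3-E7 rank 5. The ratio of Day3-E8 to Day3-E7 was 1.82 (0.709 to 5.23), an interval that included 1.

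**Figure D3:**
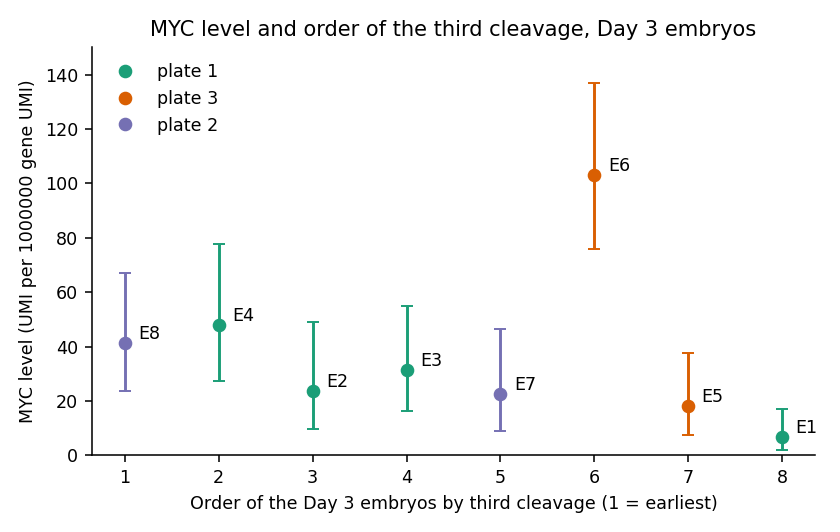
MYC level in UMI per 1000000 gene UMI (y axis, exact 95% Poisson intervals as bars) of the 8 Day 3 embryos in the order of the third cleavage (x axis), coloured by plate. The earliest pair of embryos lies at 41.2 and 47.8 CPM and the latest at 6.66 CPM, with Day3-E6, the sixth, at 103.0 CPM.

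The genes whose levels followed MYC over the Day 3 embryos were found by Pearson's r of log2(CPM + 1) among 5273 genes. The 8 embryos came from 3 plates and differed in barcode set and depth, so r is a description and no p is given. The median r of all genes was -0.223 with quartiles of -0.447 and 0.236, 61 genes reached 0.8 and 45 lay at -0.8 or less. An r of 0.9 or more was reached by 2 genes and an r of -0.9 or less by 2.

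ARID5A, which encodes an RNA-binding protein that stabilises cytokine mRNA, was most like MYC (r = 0.913, rho = 0.905). Its level was lowest in Day3-E1 (8.33 CPM), had a median of 27.3 CPM and was highest in Day3-E4 (41.8 CPM). These Day 3 levels rest on 81 ARID5A UMI in all. FAM60A, a subunit of the SIN3 histone deacetylase complex, came next (r = 0.903, rho = 0.929), from 24.99 CPM in Day3-E1 over a median of 108 CPM to 243 CPM in Day3-E6. Without Day3-E6, r was 0.976 for ARID5A and 0.871 for FAM60A.

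The further genes in this group were ARRDC2, an arrestin-domain protein (r = 0.889), FEM1C, a substrate receptor of a ubiquitin ligase (0.884), and EIF5A2, a paralogue of the translation factor EIF5A (0.879). They were followed by GNAS, the stimulatory G protein alpha subunit (0.877), the PHD finger gene PHF23 (0.875) and ADAMTS1, a secreted metalloprotease (0.874). The last were RTN4, which shapes the endoplasmic reticulum (0.873), PDCD4, an inhibitor of the helicase EIF4A (0.871), the antiproliferative gene TOB1 (0.863) and AKIRIN2, which brings proteasomes into the nucleus (0.863). Each of the 12 genes was lowest in Day3-E1 and 6 were highest in Day3-E6. MYC had its own extremes in these embryos and the genes were chosen by r with MYC, so the shared extremes follow in part from the choice.

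ADAMTS1 was at 0 CPM in Day3-E1, at 13.56 CPM in Day3-E2 and at 193 CPM in Day3-E6, with a Day 3 median of 58.1 CPM, while the Day 2 embryos lay between 0 and 2.17 CPM. TOB1 had the highest rank correlation of the 12 (rho = 0.976), from 66.6 CPM in Day3-E1 to 362 CPM in Day3-E6.

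Between days, the quasi-likelihood test of edgeR, with p-values adjusted by Benjamini-Hochberg, called 10 of these 12 genes higher on Day 3 and 0 lower. Of all 5274 genes tested, 32.46% were called, 21.18% higher and 11.28% lower. The 12 genes were chosen by their levels in the same Day 3 embryos. The log2 fold change of the called ones ranged from 1.08 for FEM1C (SE 0.28, adjusted p = 0.00812) to 6.06 for ADAMTS1 (SE 1.00, adjusted p = 0.000394). ARID5A (0.37, SE 0.33, adjusted p = 0.396) and AKIRIN2 (0.28, SE 0.17, adjusted p = 0.205) were not called. The Day 2 levels of ARID5A, from 20.5 to 32.0 CPM, lay inside its Day 3 range.

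The membership of this group was not stable. Without Day3-E6, 2 of the 12 genes were still among the 12 highest, and without Day3-E1 3 were. The r of the 12 genes fell to between 0.690 and 0.829 without Day3-E1 and lay between 0.777 and 0.976 without Day3-E6. When the 6 Day 2 embryos were included, 0 of the 12 remained among the 12 highest.

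At the opposite end stood MYCL, the paralogue of MYC that also pairs with MAX, and which after CSNK2A2 and HMOX2 had the lowest r among genes that have a symbol (r = -0.897, rho = -0.881). Its level was 28.3 CPM in Day3-E1, had a median of 18.3 CPM over the Day 3 embryos and was 8.77 CPM in Day3-E6, with 10.297 CPM in Day3-E8. The embryos with most MYC thus had least MYCL. Leaving out single embryos gave r between -0.938 and -0.823, but the Day 3 levels rest on 58 MYCL UMI in all, and with TMM-scaled levels r was -0.762.

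The other genes with the lowest r were CSNK2A2, a catalytic subunit of casein kinase 2 (-0.915), HMOX2, the constitutive heme oxygenase (-0.914), and MTF2, a Polycomb-like protein (-0.895). TRAP1, a mitochondrial chaperone (-0.880), and OGDH, an enzyme of the citric acid cycle (-0.878), completed the 6. All 6 were lowest in Day3-E6, and 5 were highest in Day3-E1, which follows in part from their choice by r with MYC over these embryos. Of the 6, MYCL alone was called between the days. HMOX2 ranged from 8.77 CPM in Day3-E6 and 8.97 CPM in Day3-E4 to 48.3 CPM in Day3-E1, and OGDH from 8.77 to 38.3 CPM. Their Day 3 levels rest on 84 HMOX2 UMI and 60 OGDH UMI in all.

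**Figure D4:**
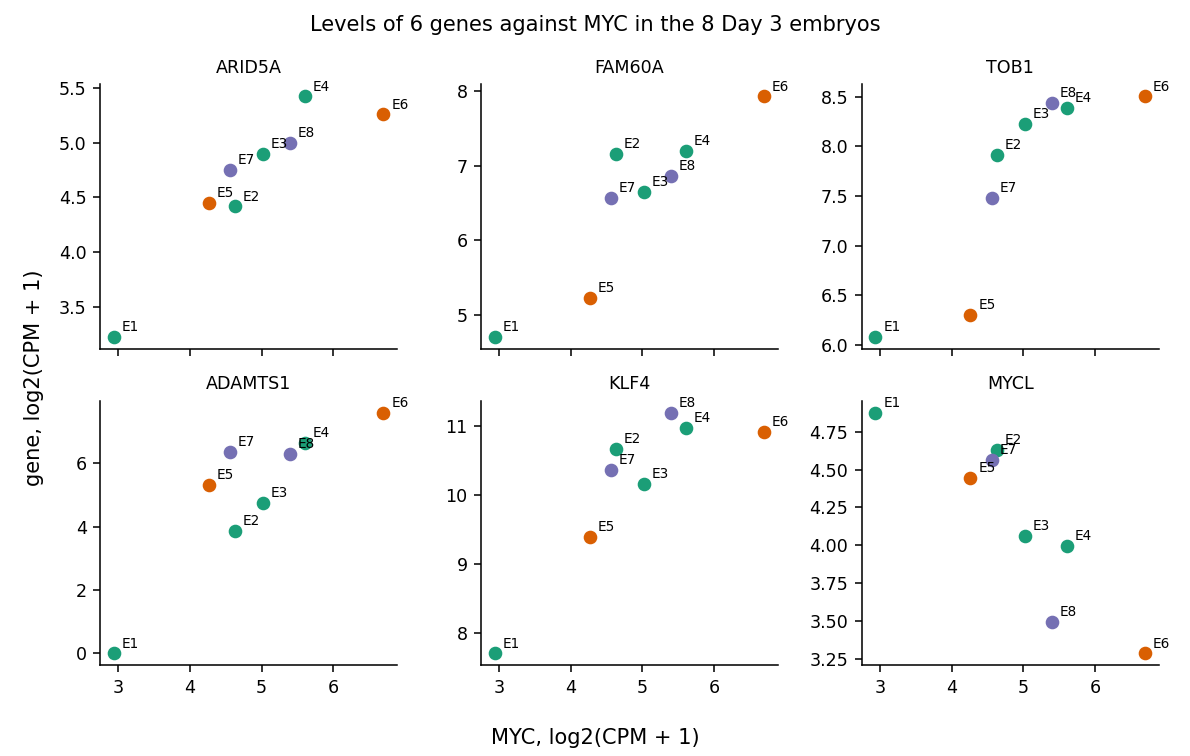
Levels of ARID5A, FAM60A, TOB1, ADAMTS1, KLF4 and MYCL (y axes, log2(CPM + 1)) against MYC (x axis, log2(CPM + 1)) in the 8 Day 3 embryos, coloured by plate (plate 1 green, plate 2 purple, plate 3 orange). The first 5 genes are lowest in Day3-E1, where MYC is lowest, and MYCL lies between 28.3 CPM in Day3-E1 and 8.77 CPM in Day3-E6.

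Among the other candidate genes of the study, KLF4 (r = 0.856) and NANOG (r = 0.765), both pluripotency factors, had positive r with MYC. Without Day3-E6 these were 0.947 and 0.902, and without Day3-E1 0.673 and 0.512. KLF4 had 207 CPM in Day3-E1, a Day 3 maximum of 2340 CPM in Day3-E8 and 1924 CPM in Day3-E6. For PCDH10, a protocadherin, r was 0.377, and it depended on single embryos, with 0.829 without Day3-E6 and -0.174 without Day3-E1. For POU5F1 it was -0.384, with -0.706 and -0.255 without these embryos.

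The partners with which MYC competes for or binds MAX were measured in the same embryos. MAX itself rose from 86.3 ± 21.4 CPM on Day 2 (SD, n = 6) to 205 ± 117 CPM on Day 3 (SD, n = 8), a log2 fold change of 1.63 (SE 0.40, edgeR adjusted p = 0.00575). Its Day 2 levels lay between 48.7 and 107 CPM and its Day 3 levels between 113 and 409 CPM, so the days did not overlap. With the first barcode set alone the log2 fold change was 0.79 and the call was lost (edgeR adjusted p = 0.146). Among Day 3 embryos MAX was highest in Day3-E4 (409 CPM) and Day3-E8 (371 CPM), while Day3-E6 had 144.6 CPM, and its r with MYC was 0.439.

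MGA, a large MAX partner that takes part in a repressive complex, rose from 43.0 ± 7.51 to 265 ± 195 CPM, with a log2 fold change of 3.03 (SE 0.58, edgeR adjusted p = 0.00108). Day3-E1, at 33.3 CPM, lay just below the 35.01 to 55.6 CPM seen on Day 2, and Day3-E8 reached 610 CPM. MYCL fell by 0.79 on the log2 scale (SE 0.26, edgeR adjusted p = 0.0278), from 37.1 ± 8.33 to 18.2 ± 6.84 CPM. Its days overlapped, because Day3-E1 with 28.3 CPM lay above the lowest Day 2 embryo with 27.2 CPM. The call was lost without Day2-E3 (edgeR adjusted p = 0.0538), without Day2-E5 (0.0581), without a filter on low counts (0.0524) and with the first barcode set alone (0.661).

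MXI1, which pairs with MAX and antagonises MYC, had 199 ± 29.5 CPM on Day 2 and 176 ± 80.4 CPM on Day 3 and was not called (log2 fold change 0.04, SE 0.23, edgeR adjusted p = 0.913). Its sign depended on the scaling. The remaining relatives were too low for the test. MXD1 had 108 UMI on Day 2 and 36 on Day 3, MNT 17 and 9, MLXIP 19 and 26, and MXD3 7 and 17. MXD4 was seen with 4 UMI on Day 2 and 0 on Day 3, and MLXIPL with 0 and 2. MYCN and MLX had no entry in the table.

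The wider network was taken from 8 lists of textbook partners, regulators and targets of MYC with 125 genes, of which 102 were in the table and 80 could be tested. In these, 26 genes rose and 7 fell on Day 3 by edgeR, 41.25% of those tested, beside 32.46% of all genes. The median log2 fold change of the 80 genes was 0.28 and that of all genes -0.04. With library size as the only scaling, 21 rose and 10 fell, the median of the 80 was 0.00 and that of all genes -0.27, and among all genes 47.6% of the calls were higher on Day 3 in place of 65.2%. The first barcode set alone, which keeps Day3-E1 and Day3-E2, called 9 network genes and 351 genes in all.

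Regulators that act on the MYC protein or gene rose in 4 of 14 tested cases and fell in 0, with a list median of 0.14. The share called, 28.6%, was near the 32.46% of all genes. HUWE1, a ubiquitin ligase, rose by 2.16 on the log2 scale (SE 0.45, edgeR adjusted p = 0.00199), from 43.96 ± 9.15 to 152 ± 87.1 CPM. PIM1, a kinase that phosphorylates MYC, rose by 0.81 (SE 0.20) and CTCF, which binds at the MYC locus, by 0.75 (SE 0.18).

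Of the nucleolar and ribosome assembly genes, 9 of 20 tested genes rose, 0 fell and 11 did not pass, with a median of 0.69, where 21.18% of all genes were higher and 11.28% lower. With library size as the only scaling 7 rose and 1 fell, and with the first barcode set alone 2 of 19 rose. NOP16 had 8.20 ± 3.108 CPM on Day 2 and 144 ± 126 CPM on Day 3 (log2 fold change 4.55, SE 0.77, edgeR adjusted p = 0.000449). It was at 10.0 CPM in the lowest Day 3 embryo, inside the Day 2 range. The snoRNP proteins NOP56, NOP58 and fibrillarin (FBL) rose by 3.00 (SE 0.57), 2.05 (SE 0.41) and 1.97 (SE 0.45), and the nucleolar chaperone NOLC1 by 1.73 (SE 0.35). Of these, NOP56 alone had all Day 3 embryos, from 153 CPM, above all Day 2 embryos, up to 143 CPM.

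Nucleotide and polyamine synthesis genes were called in both directions, with 3 of 16 tested genes higher, 3 lower and a median of 0.02. The share called was 37.5%, beside 32.46% of all genes, of which 21.18% were higher and 11.28% lower. GART and PPAT, enzymes of purine synthesis, rose by 5.06 (SE 0.83, edgeR adjusted p = 0.000367) and 3.65 (SE 0.59, edgeR adjusted p = 0.000353), GART from 12.6 ± 4.73 to 320 ± 282 CPM. AMD1, of polyamine synthesis, rose by 1.33 (SE 0.24). ATIC, which acts later in the same purine pathway, fell by 1.097 on the log2 scale (SE 0.28), and CTPS1, which makes CTP, fell by 1.06 (SE 0.27), with every Day 3 embryo below every Day 2 embryo.

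Among glycolysis genes, 0 of 8 rose and only PKM, the pyruvate kinase, fell, by 0.91 on the log2 scale (SE 0.29, edgeR adjusted p = 0.0258). The share of glycolysis genes called was 12.5%, beside 32.46% of all genes. Of 10 cell cycle genes 5 rose and 1 fell, with a median of 0.28, beside 21.18% of all genes higher and 11.28% lower. With library size as the only scaling, with plate as a term or in cells with 10000 or more UMI, 3 of the 10 rose and 1 fell. Cyclin E1 (CCNE1) rose by 3.39 (SE 0.57), the kinase subunit CKS2 by 1.95 (SE 0.35) and the replication clamp PCNA by 1.74 (SE 0.44). E2F1 rose by 0.53 (SE 0.19, edgeR adjusted p = 0.0384), a call that was lost when single embryos of either day were left out (10 of the 14) or with library size as the only scaling. MCM5, of the replicative helicase, fell by 1.16 on the log2 scale (SE 0.41, edgeR adjusted p = 0.0405) and was likewise lost without 10 of the 14 embryos, one at a time.

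In translation initiation, 2 of 6 tested genes rose and 1 fell, so 50% were called, beside 32.46% of all genes. EIF5A rose by 2.46 (SE 0.45) and EIF4A1 by 0.56 (SE 0.15), the latter with all Day 3 embryos above all Day 2 embryos but not called with library size as the only scaling (edgeR adjusted p = 0.143) or without a filter on low counts (0.0645). EIF2S1 fell by 0.71 on the log2 scale (SE 0.25, edgeR adjusted p = 0.0357), which was lost without any of 6 embryos. Of the genes that MYC is known to lower, 2 could be tested, and GADD45A, a stress and growth arrest gene, rose by 2.21 (SE 0.44, edgeR adjusted p = 0.00147), against the name of its list.

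Over the Day 3 embryos the list medians of r with MYC were low, beside -0.223 for all genes. The median was 0.18 for nucleolar genes, with 12 of 20 above 0, 0.155 for partners, 0.009 for regulators and 0.049 for translation initiation. It was 0.305 for the genes lowered by MYC, of which 2 were tested, and -0.05 for the cell cycle. These medians lay above that of all genes, while nucleotide and polyamine synthesis (-0.22) and glycolysis (-0.26) were near it. The highest single values were those of EIF5A (0.806) and CCNE1 (0.783), and the lowest in the target lists was that of CTPS1 (-0.773). In Day3-E1, the embryo with least MYC, EIF5A was at 83.3 CPM, below its Day 2 range of 86.6 to 137 CPM. Of the 28 network genes selected by list and size of change, 16 were lowest in Day3-E1. The embryo with most MYC, however, was not the one with most of their transcripts, since 11 of the 28 were highest in Day3-E8 and 1 in Day3-E6. NOP56, for example, had 1936 CPM in Day3-E8 and 524 CPM in Day3-E6, and GART 811 and 178 CPM. Apart from the partners, the 28 genes had been selected by a call between the days in the same embryos. How often other genes were lowest or highest in these embryos was not counted, so these counts are a description only.

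**Figure D5:**
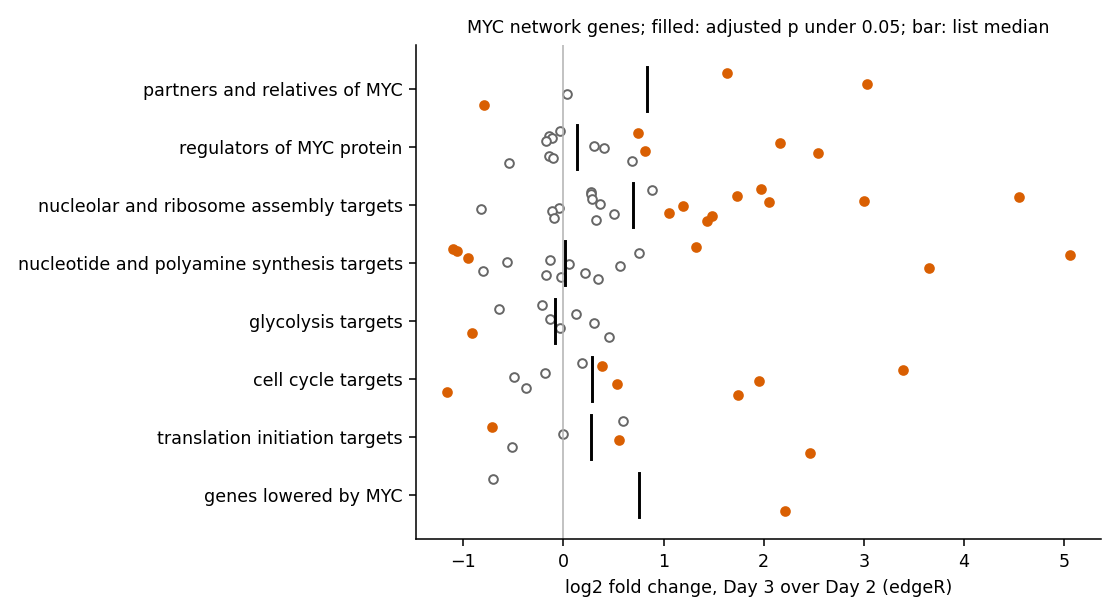
Log2 fold change of Day 3 over Day 2 by edgeR (x axis) for the 80 tested genes of the 8 MYC network lists (y axis), 1 point per gene, filled where the adjusted p was under 0.05, with the list median as a bar. Nucleolar and ribosome assembly genes include 9 called genes, all higher on Day 3, while nucleotide and polyamine synthesis has 3 called in each direction. Of all genes tested, 21.18% were called higher and 11.28% lower.

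All 6 markers of cumulus cells, which surround the oocyte, were in the table. Their summed level was 212 to 323 CPM on Day 2 and 100 to 310 CPM on Day 3, most of it HAS2, and its r with MYC over the Day 3 embryos was -0.20. VIM was at 0 in every Day 2 embryo and at most 3.39 CPM on Day 3, and VIM, PTX3 and TNC were at 0 in Day3-E6. TNFAIP6 was at 0 to 2.28 CPM on Day 2 and at 1.67 to 44.8 CPM on Day 3, highest in Day3-E4. CD44 was at 1.52 to 7.92 CPM on Day 2 and on Day 3 ranged from 0 in Day3-E2 and Day3-E8 to its highest level in Day3-E5. In Day3-E6 both TNFAIP6 and CD44 were at 8.77 CPM, above every Day 2 embryo, and their part in the results was not tested. The 9 oocyte and early embryo genes found in the table, among them ZP4 and KPNA7, summed to 8716 to 10269 CPM on Day 2 and 2942 to 11593 CPM on Day 3. The lowest sum was that of Day3-E8, and the r of the sum with MYC was -0.32. In Day3-E6 the sum was 9450 CPM, of which DPPA3 gave 3892 and KPNA7 2435 CPM. Other members were below every Day 2 embryo there. NLRP5 was at 35.1 against 246 to 303 CPM and GDF9 at 359 against 864 to 1206 CPM. ZAR1 was at 61.4 against 228 to 339 CPM and OOEP at 188 against 280 to 313 CPM. DPPA3, against 2347 to 3374 CPM on Day 2, and H1FOO, at 1098 against 875 to 1030 CPM, were above every Day 2 embryo. The part of these genes in the results was not tested.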

How the data were processed

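Blastomeres of 6 Day 2 and 8 Day 3 embryos were sequenced by SCRB-Seq. The authors used STAR 2.5.2b to align reads to Bos tau7 together with the ERCC spike-ins, and made UMI tables with the Drop-seq pipeline, and the deposited table holds raw UMI counts per gene for 170 cells. The deposited normalised table of the same cells was not used. All columns were matched to a sample by title (0 were left over).

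Cells with 2000 or more UMI were kept, ERCC entries were removed and UMI were summed per embryo and divided by the embryo's total (CPM). The 161 cells held 2078 to 357287 gene UMI, so that 1 UMI in an embryo corresponded to 1.09 to 3.39 CPM. Days were compared with edgeR 4.0.16 in R 4.3.3 (quasi-likelihood test, TMM scaling, filterByExpr, Benjamini-Hochberg adjusted p under 0.05) on the sums of 14 embryos, tested on simulated data. DESeq2 1.42.0 served as an alternative. Further steps used Python 3.11.15, pandas 2.3.3, numpy 2.4.6 and SciPy 1.17.1. The labels name separate embryos as the source of the cells, but not whether these came from separate oocyte donors or fertilization runs, so p-values measure the spread between these embryos.

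MYC and the gene lists were chosen with earlier results of these data known. The lists came from textbook knowledge. Named were the 12 genes with the highest and the 6 with the lowest r with MYC that have a symbol, all listed partners, up to 5 called genes of each other list by size of the log2 fold change, and 4 candidate genes of the study. One gene that this rule selects is counted but not reported here. No p is given for an r with MYC across genes. Embryo times came from the study's published timing. Same-numbered embryos of the 2 days are different embryos, and their deviations correlated between -0.132 and 0.0229, so the numbers do not pair them. Alternatives covered the depth minimum, scaling, filter, tool, plate, barcode set and each embryo left out.

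Genome coordinates and sequences are not given, because no reference of the authors' build was used here. CIP2A was found under its older symbol.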

Additional observations from a re-analysis of the deposited data

Results flagged for a closer look

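In 104 groups of 6 or 8 embryos, 8 had an embryo whose gap to the nearest other embryo was larger than Dixon's 95% limit, and chance alone gives this in about 1 in 20 groups. For MYC, Day2-E2 with 1.09 CPM stood apart because the other Day 2 embryos were all at 0, and the same single UMI set its share of positive cells (11.11%) and its share after thinning (0.350%) apart. On Day 3, the MYC level of Day3-E6, 103.0 CPM, stood apart from the other 7 embryos, at 6.66 to 47.8 CPM. These MYC values were among those with which the gene was chosen, so the gaps are a description and not a test of MYC.

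Among the genes whose levels were compared with MYC, ARRDC2 had 1107 CPM in Day3-E6, while the other Day 3 embryos had 142 to 575 CPM. OGDH had 38.3 CPM in Day3-E1, against 8.77 to 22.6 CPM in the others. On Day 2, HMOX2 had 68.4 CPM in Day2-E1, against 26.1 to 40.9 CPM, and KLF4 had 68.5 CPM in Day2-E4, below the 89.7 to 99.8 CPM of the others.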

How the results depend on the processing

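The log2 ratio of the mean MYC levels of Day 3 and Day 2 was 7.67. It was 9.47 when the CPM of single cells were averaged and 6.39 with the first barcode set alone, and lay between 7.24 and 7.83 when single embryos were left out. No value could be given without Day2-E2, which holds the only Day 2 UMI. The spread between siblings, 1.53, was 1.72 with the same expected count for each sibling, 0.966 without the highest cell of each embryo (chosen after seeing the data, and lower by construction), and 1.33 to 1.68 when embryos were left out. The spread between embryos, 11.06, ranged from 3.34 without Day3-E6 to 13.16 without Day3-E4.

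For the first cleavage, r turned negative on the log2 scale (-0.177), for the share of positive cells (-0.104) and on plate 1 (-0.785). It also did so without the embryos farthest from the median time, here Day3-E5 and Day3-E6 (-0.817). Without the embryos farthest from the respective median time, r also turned for the second cleavage (0.358), the third cleavage (0.0121) and the interval to collection (-0.253). For collection it turned per 1000 ERCC UMI (-0.0581). With single embryos left out, r ranged from -0.782 to 0.327 for the first cleavage, from -0.892 to 0.259 for the second, from -0.856 to 0.171 for the third and from -0.131 to 0.706 for the interval. Collection time is the same for all of plate 1, so no r could be given there. The lowest values came without Day3-E6 for the cleavages and without Day3-E1 for the interval. The median r of the 12 genes most like MYC, 0.876, was 0.740 without Day3-E1 and 0.921 without Day3-E7, the ends of its range.

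Of all genes, 1712 were called between days. The first barcode set alone called 351, and with the embryo number as a replicate block 806 were called. For the network genes, 33 calls became 9 and 18. Without Day3-E4 1327 genes were called and without Day3-E1 2163, while the network calls ranged from 26 without Day2-E5 to 41 without Day3-E1. The numbers do not pair embryos. Of the 27 selected network genes called, 17 were lost with the first barcode set, which keeps 2 Day 3 embryos, and 10 with the block. Under all other alternatives run, 22 of the 27 kept their call. The change of MXI1, 0.04, turned to -0.17 with library size only, -0.0296 without a filter, -0.28 with the first barcode set and -0.0178 in cells with 10000 or more UMI, and ranged from -0.0811 to 0.13 with embryos left out. The cause of these changes was not tested. Counting limits what can be said of MYC on Day 2 and in single cells, where 1 UMI decides between positive and negative.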
